A study of Mus musculus with 40 samples.

Results

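Myelin is the lipid-rich membrane that oligodendrocytes wrap around axons, and its genes are among the most abundant messages of this cell type in the brain. Here 8 of them, Mbp, Mog, Mag, Mobp, Cnp, Cldn11, Mal and Ugt8a, were followed in RNA from mouse cortex. All rows of these symbols were taken, whatever their values, but the 8 symbols were chosen with earlier results of these data known. All 8 were present among the 5849 gene symbols of the deposited table. Together they made up 15 of its 6831 RefSeq transcript rows: 6 rows of Mbp, 2 rows each of Mag and Cnp, and 1 row of each other gene. The study compared 40 libraries from male C57BL/6 mice (C57Bl/6J in the study's methods) aged 12 weeks, with 10 libraries in each of 4 groups: saline + sham, memantine + sham, saline + HF-HI and memantine + HF-HI. HF-HI stands for high-frequency head impact. The sources used here do not say whether the 10 libraries of a group came from 10 separate mice, so each test below measures the spread between libraries. Every animal was injected with saline or with memantine, a blocker of the NMDA type of glutamate receptor, 1 h before each session, sham animals were handled and anaesthetized without impacts, and the cortex was taken 24 h after the last session. The study used whole cortical homogenate, so fewer oligodendrocytes and less RNA per oligodendrocyte cannot be told apart in any value below.

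The rows in the table summed to between 13322796 and 17529586 reads per library. Values are normalised read counts unless another scale is named, and a gene sum is the sum of the counts of all rows of a symbol. Of the neuron markers chosen to check the tissue, 15 of 15 were in the table. Markers of the striatum (11 of 22) and of the thalamus (5 of 13), which lie below the cortex, were in it too. The summed striatum markers ranged from 36200 to 59321 in saline sham and from 36375 to 50613 in saline HF-HI, and from 39538 to 60451 and 34045 to 54287 in the sham and HF-HI animals given memantine. Of these markers, 8 of 11 were lower in saline HF-HI than in saline sham at P under 0.05, beside 10.7% of all gene sums called in either direction. Their part in the results below was not tested beyond a fit of the 8 myelin genes with the marker mean as a covariate.

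The genes lie on separate chromosomes, apart from a pair on chromosome 3 (build GRCm38.p6, mm10). Mbp spans bases 82475091 to 82585637 of chromosome 18, Mog 37010740 to 37023398 of chromosome 17 and Mag 30899175 to 30914922 of chromosome 7. Mobp spans 120149742 to 120181488 of chromosome 9 and Cnp 100574909 to 100591875 of chromosome 11. Cldn11 (31149920 to 31164326) and Ugt8a (125865272 to 125938682) share chromosome 3, and Mal spans 127633226 to 127656695 of chromosome 2.

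The 8 genes serve different layers of the sheath. Mbp encodes myelin basic protein and Mobp the myelin-associated oligodendrocyte basic protein, which hold the cytoplasmic faces of compact myelin together, and the messenger RNA of Mbp is carried out to the sheath for local translation. Mag and Mog encode immunoglobulin-type adhesion proteins, Mag at the membrane next to the axon and Mog on the outermost surface. Cnp encodes a phosphodiesterase of the cytoplasmic channels, Cldn11 the claudin of the tight junctions between wraps, Mal a proteolipid of membrane transport, and Ugt8a the enzyme that makes galactosylceramide, the typical myelin lipid.

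Transcript abundance covered a wide range. The Mbp gene sum averaged 24800 ± 2633 (SD, n = 40), higher than 99.3% of all gene sums. Mal averaged 4740 ± 466, Cnp 4436 ± 403 and Mobp 3081 ± 493. Mag (1852 ± 291), Cldn11 (1810 ± 199.6), Ugt8a (1443 ± 183) and Mog (708 ± 73.8) were lower, and Mog lay above 15.0% of the gene sums in a table that held abundant transcripts only. Levels were compared between genes per kilobase of transcript for the 11 rows that had a GENCODE model of their own. The main Mbp row, NM_001025259, stood at 8689 counts per kilobase. It was followed by Mal at 1706, the Mbp row NM_001025255 at 1442, Cldn11 at 968 and Mobp at 938. Mog at 416 and Ugt8a at 386 closed the order of the single-row genes. Cldn11 and Mobp, and likewise Mog and Ugt8a, differed by less than their spread over libraries.

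The first question was whether head impact, memantine or both changed these messages 24 h later. No difference in any gene sum was detected. With saline HF-HI set against saline sham, 0 of 8 gene sums passed an unadjusted P of 0.05 in limma, the criterion that the study used, beside 10.7% of all gene sums. In memantine HF-HI against memantine sham 0 of 8 passed, beside 4.38% of all gene sums. With memantine HF-HI set against saline HF-HI 0 of 8 passed, beside 3.62%, and in memantine sham against saline sham 0 of 8, beside 7.9%. The interaction of impact and drug gave 0 of 8, beside 3.59%. The smallest adjusted P of a member over the 5 comparisons was 0.736 (limma, Benjamini-Hochberg over all gene sums), and no other tool was run on the gene sums. These comparisons share groups, and their values are therefore not independent of each other.

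**Figure D1:**
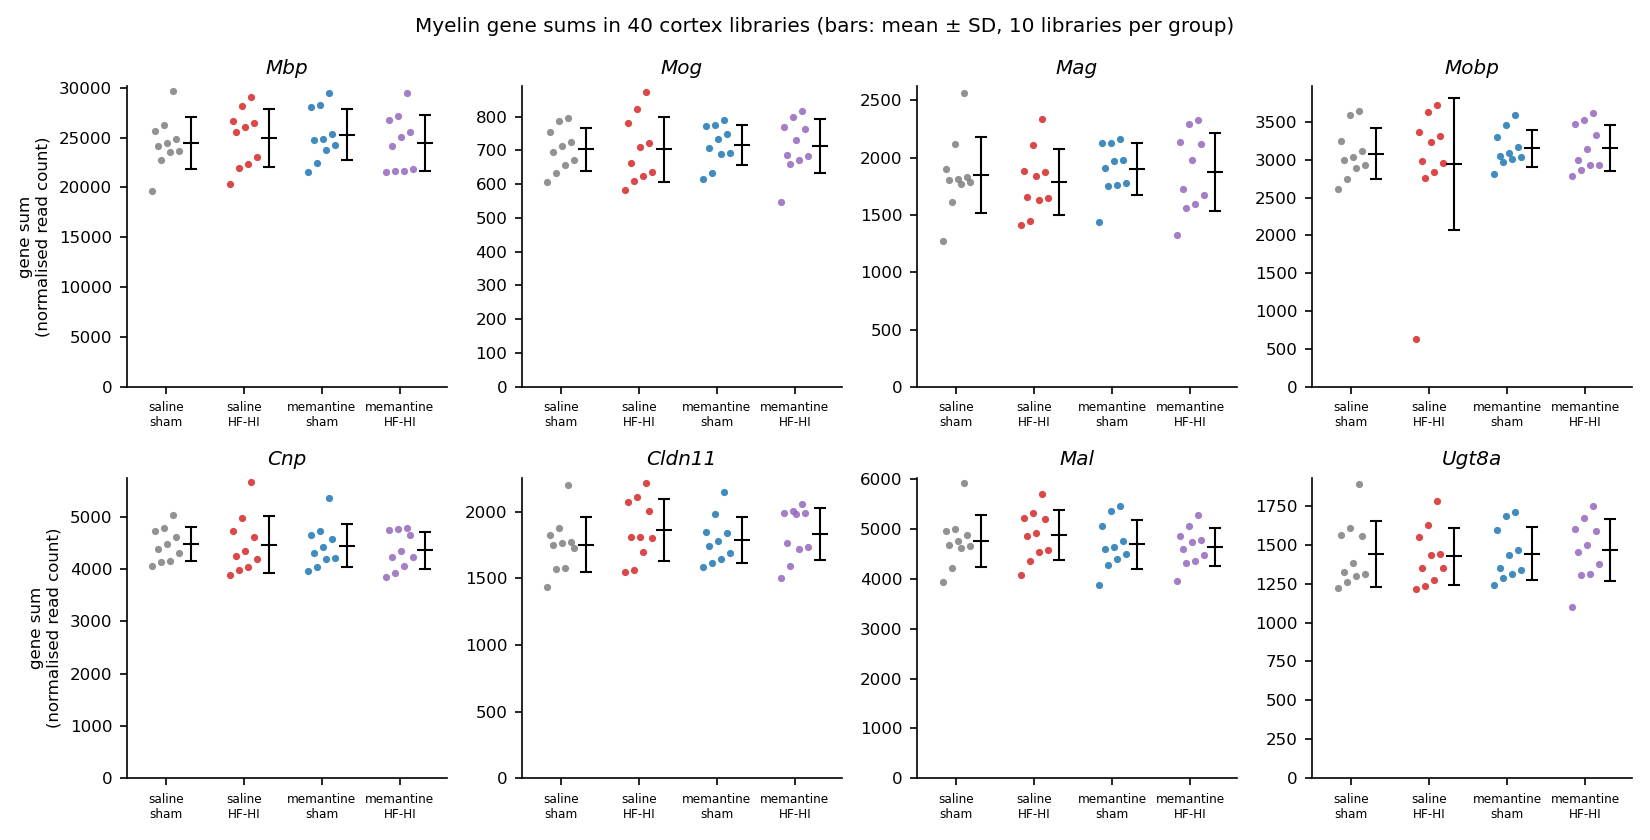
Gene sums (vertical axes, normalised read counts, from 0) of the 8 myelin genes in 4 groups of 10 libraries (points), with mean ± SD beside them. The groups overlap for every gene, and the saline HF-HI library with a Mobp sum of 636.2 stands apart from all others.

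Mbp ranged from 19645 to 29672 in saline sham (median 24300.0) and from 20302 to 29029 in saline HF-HI (median 25796). In memantine sham it ranged from 21581 to 29508 (median 24842) and in memantine HF-HI from 21550 to 29519 (median 24594). The 4 ranges almost coincided. HF-HI differed from sham by 1.86% under saline (95% interval −7.53% to 12.2%) and by −3.30% under memantine (−12.2% to 6.51%).

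For the surface protein Mog the saline sham libraries lay between 605 and 794 (median 705) and the saline HF-HI libraries between 583 and 874 (median 686). The memantine sham libraries lay between 615 and 790 (median 719) and the memantine HF-HI libraries between 547 and 818 (median 708). HF-HI changed the estimate by −0.609% under saline (−9.83% to 9.56%). Its groups overlapped throughout.

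Mag, the adhesion protein facing the axon, varied more: 1277 to 2562 in saline sham (median 1809), 1416 to 2339 in saline HF-HI (median 1748), 1438 to 2159 in memantine sham (median 1937) and 1326 to 2328 in memantine HF-HI (median 1851). The estimate for HF-HI under saline was −3.14% (−16.1% to 11.85%). Its interval was the widest after that of Mobp.

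Cnp lay between 4065 and 5041 in saline sham (median 4438), 3887 and 5660 in saline HF-HI (median 4294), 3960 and 5355 in memantine sham (median 4368) and 3856 and 4780 in memantine HF-HI (median 4294). With an estimate of −0.538% (−8.24% to 7.81%) for HF-HI under saline, it had the narrowest interval of the 8 genes. Mal lay between 3943 and 5926, 4072 and 5692, 3882 and 5458, and 3952 and 5276 in the same order of groups, with an estimate of 2.39% (−6.26% to 11.8%). For neither gene did a group stand apart.

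Cldn11 had the largest upward estimate for HF-HI under saline, at 6.32% (−3.65% to 17.3%, P = 0.216, limma). Its values were 1439 to 2202 in saline sham (median 1757), 1544 to 2218 in saline HF-HI (median 1810), 1587 to 2146 in memantine sham (median 1763) and 1505 to 2057 in memantine HF-HI (median 1876). The lipid enzyme Ugt8a ranged from 1218 to 1891 in saline sham (median 1353), 1217 to 1778 in saline HF-HI (median 1392), 1241 to 1711 in memantine sham (median 1391) and 1096 to 1750 in memantine HF-HI (median 1474), and its estimate was −0.877% (−11.6% to 11.1%). The groups overlapped for both genes.

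Mobp needed separate treatment because 1 library set its estimate. In saline HF-HI replicate 1 the Mobp count was 636.2, whereas the other 9 libraries of that group lay between 2755 and 3719, so this library held 19.9% of their mean. Saline sham lay between 2607 and 3642 (median 3019), memantine sham between 2809 and 3594 (median 3067) and memantine HF-HI between 2779 and 3618 (median 3066). With all libraries the estimate for HF-HI under saline was −11.5% (−30.3% to 12.3%). Without that library it turned to 3.91% (−4.80% to 13.4%), and memantine HF-HI against saline HF-HI went from 16.1% (−8.53% to 47.3%) to −1.17% (−9.45% to 7.88%). Mobp was measured by the single row NM_008614. That library also moved the other estimates for HF-HI under saline. Without it, Mbp went to 4.15% (−5.33% to 14.6%) and Mag to −0.742% (−14.2% to 14.8%), while Mog (0.857%) and Cnp (0.938%) changed sign, and 0 of 8 gene sums passed. It was also low in Mbp, Mag, Cldn11, Mog and Cnp, by 0.21 to 0.35 on the log2 scale against the other 9, which is far less than the 2.32 of Mobp. A drop of over 1 log2 unit against the rest of the group was seen for 30 gene sums in this library, and for 12 to 35 gene sums in each of the 40 libraries. By this difference Mobp ranked 7 from the lowest of the 5849 gene sums in this library.

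**Figure D2:**
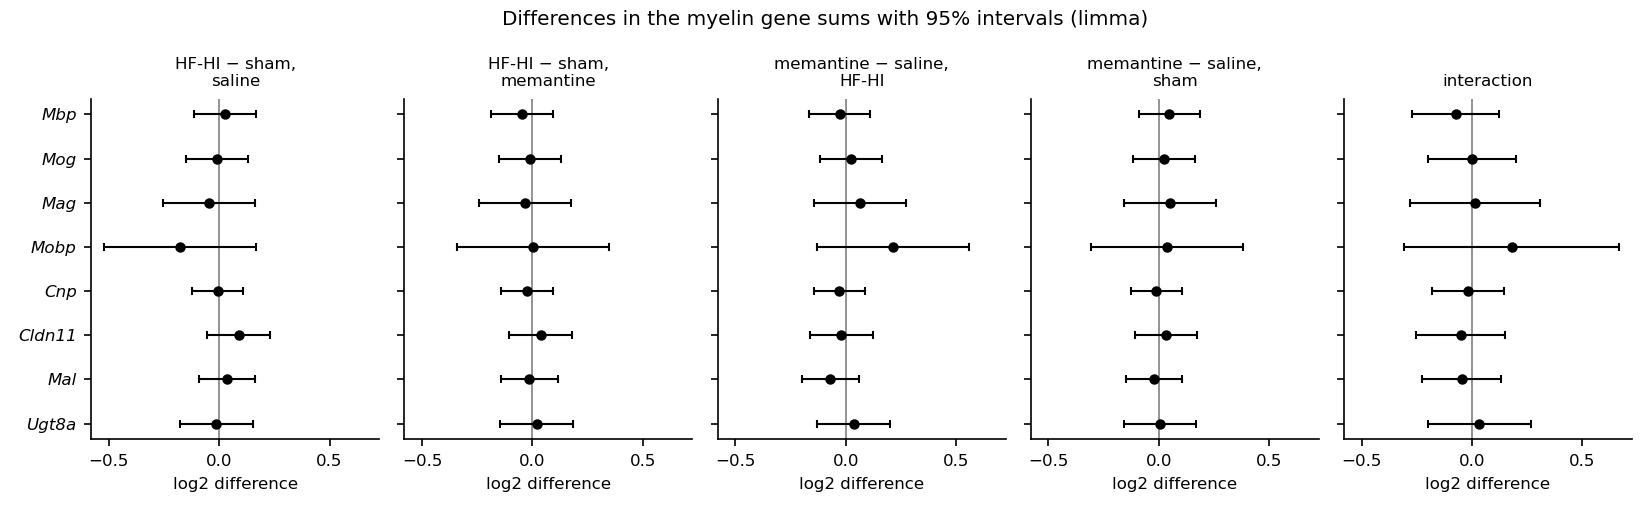
Differences in the log2 gene sums of the 8 myelin genes (points, horizontal axes) with their 95% intervals (bars) for the 5 comparisons. Every interval includes 0, and Mobp has the widest intervals with all 40 libraries in the fit.

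Over the 8 gene sums the median log2 difference was −0.01 for HF-HI against sham under saline and −0.01 under memantine. It was 0.00248 for memantine against saline after HF-HI and 0.03 in sham animals. The median over all 5849 gene sums was within 0.0016 of 0 in each of the 5 comparisons. The estimates of the members were split in sign, with 3 above and 5 below 0 for HF-HI against sham under saline and the same split under memantine. Neither the split nor the sign of the median was stable. Without saline HF-HI replicate 1 it was 6 above and 2 below with a median of 0.02, and with any 1 library left out the number above 0 ran from 2 (without saline sham replicate 2) to 7 (without saline sham replicate 7) and the median from −0.05 to 0.02. Under memantine the number above 0 ran from 1 to 6. With all 40 libraries, the 95% intervals of the 7 genes other than Mobp in the impact comparisons reached no further than −16.1% and 17.3%.

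At the level of single transcripts 1 of 15 rows passed an unadjusted P of 0.05 in saline HF-HI against saline sham, beside 9.53% of all rows, and 1 of 15 in memantine sham against saline sham, beside 7.51%. None of the 15 passed in memantine HF-HI against memantine sham (4.61% of all rows), between the memantine and saline HF-HI groups (3.91%) or in the interaction (3.73%). The counts of members were near or below the background throughout. The row was the same one both times, the Mbp row NM_001025245.

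NM_001025245 differs from the other Mbp rows in its start. Its matched GENCODE model begins 79.3 kb upstream of the other 5, in the part of the locus known for the golli products, has 4 exons with a last exon of 4384 bases, and encodes 195 residues. Golli proteins are made from the upstream promoter and occur in neurons and immune cells as well as in oligodendrocytes. This row held 8.71% of the Mbp counts. It ranged from 1679 to 2202 in saline sham (median 2087), 1733 to 2484 in saline HF-HI (median 2225), 2092 to 2329 in memantine sham (median 2185) and 1893 to 2469 in memantine HF-HI (median 2263). The saline sham libraries were the low group, and 10 of 10 memantine sham libraries lay above the saline sham mean.

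On the deposited variance-stabilised scale, which compresses changes at this abundance, the row was higher by 0.06 ± 0.03 (SE) in saline HF-HI than in saline sham (P = 0.0459, adjusted P = 0.511, limma). As log2 of the group mean counts the difference was 0.11. In memantine sham against saline sham it was higher by 0.06 ± 0.03 (P = 0.0338, adjusted P = 0.636), again 0.11 in log2 counts. Both comparisons use the same saline sham libraries. A two-sided permutation test of the counts gave P = 0.0703 for the former and P = 0.00217 for the latter. Without saline sham replicate 2, the lowest library, P became 0.128 and 0.097. The call in saline HF-HI was lost on leaving out any 1 of 12 libraries (saline sham replicates 1 to 5 and saline HF-HI replicates 3, 4, 5, 7, 8, 9 and 10), with P from 0.052 to 0.128. The call in memantine sham was lost on leaving out any 1 of 5 (saline sham replicates 2, 4 and 5 and memantine sham replicates 6 and 8), with P from 0.05 to 0.097. With the striatum marker mean as a covariate the smallest P among the member rows in saline HF-HI against saline sham was 0.128.

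The other 5 Mbp rows start at the downstream promoter that serves oligodendrocytes and differ in 3 internal exons. An exon of 78 bases (82561778 to 82561855) is present in 2 of them, an exon of 33 bases (82575601 to 82575633) in 3, and an exon of 123 bases (82578936 to 82579058) in 3. NM_001025259, which lacks the 78-base and 123-base exons and encodes 128 residues, carried most of the counts, with 66.4 ± 3.11% of the Mbp gene sum in saline sham, 67.2 ± 2.19% in memantine sham, 67.6 ± 1.66% in saline HF-HI and 68.1 ± 2.18% in memantine HF-HI (SD, n = 10). NM_001025255, with the 123-base exon and 169 residues, came next. The rows with 184, 154 and 158 residues (NM_001025254, NM_001025256 and NM_001025258) held smaller shares, of between 2.18% and 6.84% as group means. Since these rows share most of their bases, their counts rest on how the counting program divided shared reads, and they are not independent of each other.

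The share of NM_001025255 was lower with memantine in both arms. It ranged from 9.74% to 15.5% in saline sham (mean 12.97 ± 2.01%), 9.79% to 16.4% in saline HF-HI (12.5 ± 1.85%), 9.14% to 12.6% in memantine sham (11.3 ± 1.23%) and 8.07% to 12.7% in memantine HF-HI (10.8 ± 1.36%). The ranges overlapped. The difference was −1.64 percentage points in sham animals (two-sided permutation P = 0.0421) and −1.72 percentage points after HF-HI (P = 0.0262). These were the only 2 of 40 tests on the shares of Mbp, Mag and Cnp rows with an unadjusted P under 0.05, and neither passed adjustment over the 40 (adjusted P = 0.606 for both). After these values were seen, both memantine groups were set against both saline groups, with libraries permuted within sham and within HF-HI. The pooled difference was −1.68 percentage points (P = 0.00221, adjusted P = 0.0221 over the 10 row shares), a value that does not stand as independent evidence. No difference was detected in the gene sum of Mbp, at 3.38% (95% interval −6.15% to 13.9%) for memantine in sham animals and −1.86% (−10.9% to 8.10%) after HF-HI.

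Grouping the 5 downstream rows by exon content, also after the values were seen and without a test, set the measure against the groups once more. The rows with the 123-base exon include NM_001025255, so their share is not independent of the share of that row. Rows with the 123-base exon made up 24.2 ± 2.10% of the 5 rows in saline sham (22.2% to 29.3%), 22.7 ± 1.51% in saline HF-HI (20.6% to 25.4%), 22.2 ± 1.27% in memantine sham (19.97% to 24.1%) and 20.7 ± 1.34% in memantine HF-HI (18.9% to 23.1%). Saline sham was highest and memantine HF-HI lowest, with overlap between all neighbours. Rows with the 78-base exon made up 10.9 ± 2.10%, 9.78 ± 1.19%, 11.4 ± 1.93% and 10.6 ± 1.51% in the same order of groups. In that measure no group stood apart.

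**Figure D3:**
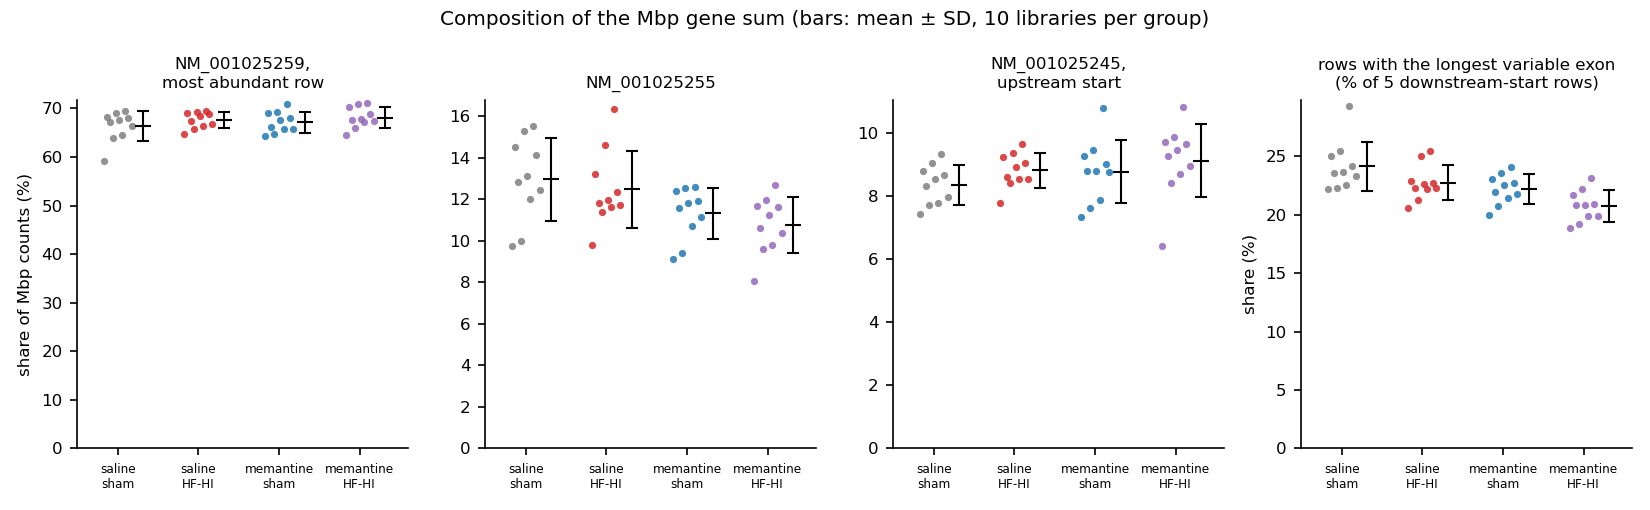
Shares of the Mbp gene sum held by 3 of its 6 rows, and the share of the 5 downstream rows that hold the 123-base exon (vertical axes, percent, from 0), in 4 groups of 10 libraries (points) with mean ± SD. NM_001025255 is lower in the memantine groups, with overlapping ranges. The share with the 123-base exon, which includes NM_001025255 and was not tested, is highest in saline sham (24.2%) and lowest in memantine HF-HI (20.7%). Saline HF-HI (22.7%) and memantine sham (22.2%) lie close together between them.

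The 2 rows of Cnp and the 2 rows of Mag kept similar proportions. NM_009923 held 53.0 ± 4.21% of the Cnp counts in saline sham, 52.5 ± 3.10% in memantine sham, 55.0 ± 4.42% in saline HF-HI and 55.6 ± 3.72% in memantine HF-HI, and the closest comparison, HF-HI against sham under memantine, gave P = 0.0606 by permutation. NM_001346088 held 60.4 ± 7.43% of the Mag counts in saline sham and 57.2 ± 7.23% in memantine HF-HI, with the other groups between them. Its permutation P-values ran from 0.355 to 0.964.

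The libraries differed from each other far more than the groups did. The coefficient of variation of a gene sum within a group ran from 7.21% (Cnp, saline sham) to 29.6% (Mobp, saline HF-HI, 10.7% without replicate 1), whereas counting error alone gives between 0.627% and 3.78%. Averaged over the 4 groups it was 16.01% for Mag, 14.4% for Mobp, 13.1% for Ugt8a, 11.1% for Cldn11, 10.9% for Mbp, 10.6% for Mog, 9.98% for Mal and 9.19% for Cnp. The median over all gene sums was 6.43%, and the 8 genes lay between the 74.1 and 89.8 percentiles. The myelin genes were thus more variable between libraries than most genes of the table.

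This spread was shared between the genes. In saline HF-HI replicate 10 the mean of the 8 genes was 0.29 log2 units above their mean over the 40 libraries, and all 8 were above it. Saline sham replicate 7 (0.26) and memantine sham replicate 1 (0.23) were also high in all 8. At the other end, saline sham replicate 2 was lower by 0.26 and memantine HF-HI replicate 6 by 0.20, each in all 8 genes, and saline HF-HI replicate 1 was lower by 0.44 in the mean and in 7 of 8 genes, Mal being the exception. High and low libraries occurred in more than one group. The SD of this mean within a group was 0.21 in saline HF-HI (0.15 without replicate 1), 0.14 in saline sham, 0.13 in memantine HF-HI and 0.11 in memantine sham.

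**Figure D4:**
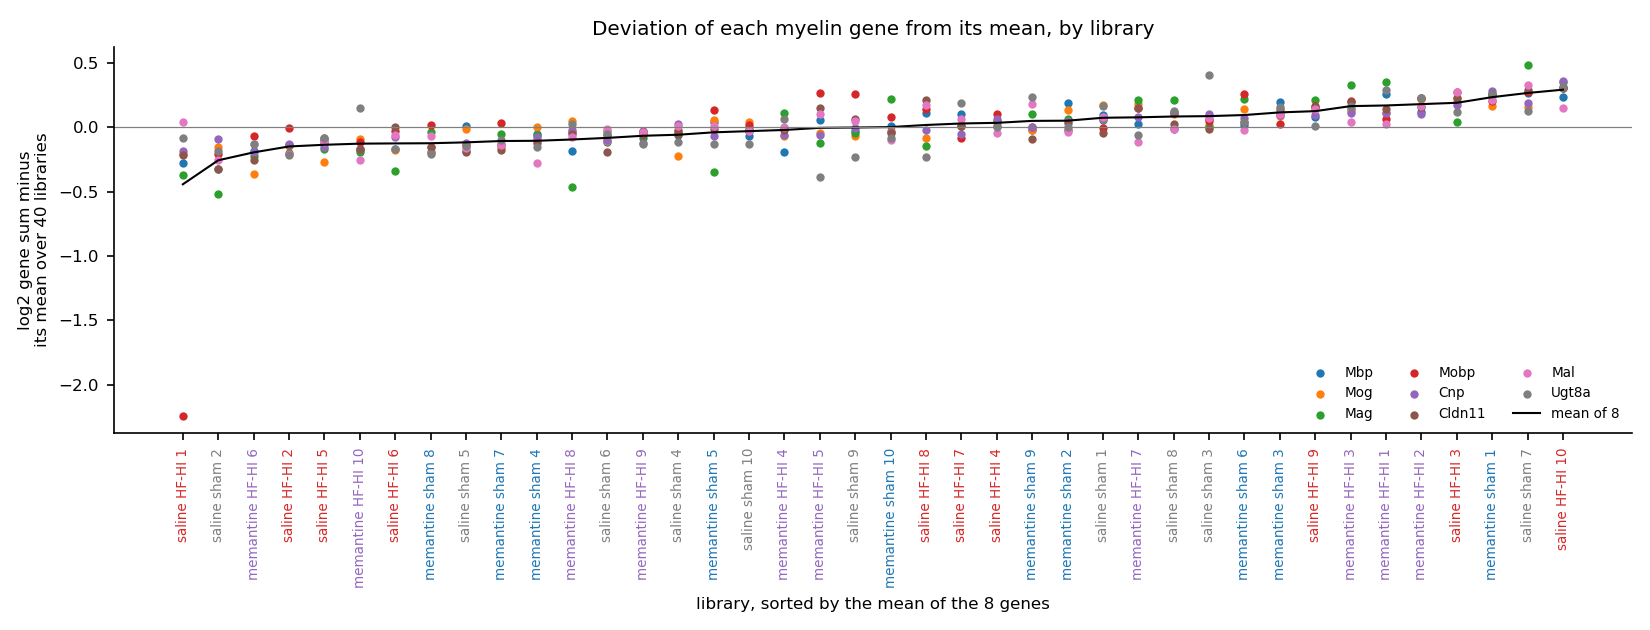
Deviation of each myelin gene (coloured points, log2 gene sum minus its mean over 40 libraries) and the mean of the 8 (line) in each library, sorted by that mean and with labels coloured by group. The 8 genes move together from left to right, and the groups are mixed along the axis.

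Correlations were computed over the 40 libraries after the group means had been removed, for all 28 pairs of gene sums. Pearson's r was above 0 for 28 of 28 pairs, with a median of 0.62 and a range of 0.14 to 0.87, and Spearman's rho had a median of 0.67 (0.17 to 0.90). By permutation within groups, 26 pairs passed an adjusted P of 0.05 for r and 27 for rho, with 1e-05 as the smallest P that the permutations can give. The closest pairs were Cnp with Cldn11 (r = 0.87, rho = 0.90, adjusted P = 1.75e-05 and 2e-05), Mbp with Cldn11 (r = 0.87, rho = 0.85) and Mog with Cnp (r = 0.85, rho = 0.86). Without the 2 libraries farthest from the median, saline HF-HI replicates 1 and 10, the median r was 0.68. Within single groups the median r was 0.72 in saline sham, 0.59 in memantine sham, 0.71 in saline HF-HI and 0.64 in memantine HF-HI.

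Mobp and Ugt8a were the loosest members. Mobp with Ugt8a gave r = 0.14 (permutation P = 0.441) and rho = 0.17 (P = 0.262), and 0.21 for r without saline HF-HI replicate 1. Mobp with Mal gave r = 0.25 (P = 0.154) and rho = 0.52 (P = 0.00019), and r was 0.71 without that library, so the low r rested on a single value. Against the mean of the other 7 members, Cnp had the highest r (0.92), then Cldn11 (0.89), Mbp (0.88), Mog (0.81), Mag (0.78), Mal (0.69), Ugt8a (0.58) and Mobp (0.46, or 0.73 without that library). The upstream Mbp row NM_001025245 gave r = 0.55 (0.48 without that library), against 0.81 for NM_001025259 and 0.75 for NM_001025255. These single-row values are descriptions. NM_001025254 (r = 0.33), NM_001025258 (r = 0.21) and NM_001025256 (r = 0.19) were lower, and the part of the division of shared reads in these values was not tested.

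The bases before the starts of the members were examined as well, and their part in the shared spread between libraries was not tested. RefSeq windows of the 250 bases upstream of an annotated start were available for 7 of the 8 symbols used here, in 9 windows. They were searched on both strands for ACAAAG, the core bound by Sox factors, among which Sox10 is central to the myelin programme, and for CTGGCAC and CTGGTAC, forms of the element bound by Myrf, the regulator that turns on myelin genes. Among all 32851 windows of that length, 16.5% held ACAAAG and 5.93% held a form of the Myrf element. ACAAAG was found before 3 of the 7 genes, Mobp, Cnp and Mag, and a Myrf form before 3, Cnp, Mag and Mog. A gene was counted if any of its windows held a match, whereas the shares over all windows are per window. The counts and shares are therefore not in the same unit. No match was found before Cldn11, Mal or Ugt8a.

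The windows of Mobp, Cnp and Mag are shown because they hold ACAAAG, and Cnp and Mag hold CTGGCAC as well. They are written 5′ to 3′ along the gene, with matches on either strand in capitals (CTTTGT is ACAAAG read on the other strand). Mobp comes from chr9:120149492-120149741 on the plus strand, Cnp from chr11:100574689-100574938 on the plus strand, and Mag from chr7:30914923-30915172 on the minus strand, all in build GRCm38.p6.
Mobp: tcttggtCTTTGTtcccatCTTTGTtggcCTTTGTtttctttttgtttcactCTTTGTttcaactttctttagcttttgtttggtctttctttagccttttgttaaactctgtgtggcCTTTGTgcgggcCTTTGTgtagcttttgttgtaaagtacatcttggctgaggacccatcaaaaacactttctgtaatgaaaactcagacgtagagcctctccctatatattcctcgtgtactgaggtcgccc
Cnp: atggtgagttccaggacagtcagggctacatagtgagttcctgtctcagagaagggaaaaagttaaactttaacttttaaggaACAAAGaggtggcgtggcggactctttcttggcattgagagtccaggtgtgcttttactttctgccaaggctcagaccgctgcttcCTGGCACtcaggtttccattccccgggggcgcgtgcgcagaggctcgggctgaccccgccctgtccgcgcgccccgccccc
Mag: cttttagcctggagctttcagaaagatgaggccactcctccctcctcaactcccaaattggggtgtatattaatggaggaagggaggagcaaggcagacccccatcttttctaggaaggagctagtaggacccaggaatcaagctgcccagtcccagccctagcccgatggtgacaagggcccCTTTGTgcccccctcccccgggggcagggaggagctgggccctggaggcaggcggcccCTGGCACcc

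The Mobp window held 6 copies of ACAAAG. They lay 243, 231, 221, 198, 132 and 120 bases before the start, counted to the first base of each match. This window was the only one of the 32851 with 6 or more, a cutoff equal to its own count and therefore not a test. Cnp held ACAAAG at 167 and CTGGCAC at 81 bases before the start used for its window. That window ends at base 100574938, inside the Cnp span that begins at base 100574909, so these distances also depend on the start used. Mag held ACAAAG and CTGGCAC, the same pair, at 67 and 9 bases before its start. Mag has 3 annotated starts and the most upstream is shown. Counted from another start the pair lay at 126 and 68 bases, and the window of the third held no match, so the distance depends on the start chosen. A match describes the sequence and was not tested for binding.

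The symbols most like the members were picked by their r from all 5841 other gene sums, so high values follow from the choice. The 10 symbols whose gene sums had the highest r with the mean of the 8 standardised gene sums included Septin4 (0.90), Plekhh1 (0.87), Gatm (0.87), Csrp1 (0.84), Trf (0.83), Ndrg1 (0.81), Ttyh2 (0.81), Anln (0.77) and Plekhb1 (0.76). Trf encodes transferrin, which oligodendrocytes make. These values are given as descriptions over 40 libraries that share their normalisation, and without saline HF-HI replicate 1 the values for these genes ran from 0.76 (Plekhb1) to 0.88 (Septin4). The 5 most negative were Hrk (−0.76), Afdn (−0.74), Cacna1e (−0.72), Hpcal4 (−0.72) and Epha5 (−0.71). The size factors of the libraries had an r of 0.05 with the same mean.

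Over lists of genes, 7 of the 9 other myelin membrane and lipid genes in the table and 12 of the 22 other oligodendrocyte-enriched genes had an r above 0.5 with the members, compared with 2.53% of all other gene sums. Of the lineage regulators in the table only Olig1 did (0.61), and Myrf stood at 0.46. None of the 5 precursor genes did, with Gpr17 at 0.24, Ptprz1 at 0.08, Bcan at 0.06, Pdgfra at −0.29 (−0.02 without saline HF-HI replicate 10) and Tnr at −0.47. The precursor genes thus stood lower in this order than the myelin membrane genes, a difference that was not tested. The transcription factors Sox10 and Olig2 were among the listed genes that had no row in the table.

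Genes of other cells and regions varied with the members as well. All 5 thalamus markers in the table had an r between 0.52 and 0.61, and their mean had r = 0.57 (rho = 0.55), or r = 0.54 without saline HF-HI replicate 1. Among 16 astrocyte markers S100b (0.56), Aqp4 (0.56) and Gfap (0.52) were highest and Slc1a3 (−0.39) lowest, with 13 above 0. The astrocyte list mean had r = 0.31 (0.56 without memantine HF-HI replicate 4). Microglia and endothelial list means stood at 0.20 and 0.21. The neuron list mean had r = −0.11, with a median of −0.02 over its 15 genes and 7 of 15 above 0. At its extremes Nefh, the heavy neurofilament of large myelinated axons, had r = 0.61, while Map2, a dendrite protein, had −0.65 and Stmn2 −0.58. The striatum mean had r = −0.17. The summed thalamus markers ranged from 4636 to 9998 in saline sham (mean 6349), 3714 to 11302 in memantine sham (6272), 3951 to 11669 in saline HF-HI (6205) and 4298 to 10518 in memantine HF-HI (6244), and their part in the spread of the myelin genes was not tested.

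**Figure D5:**
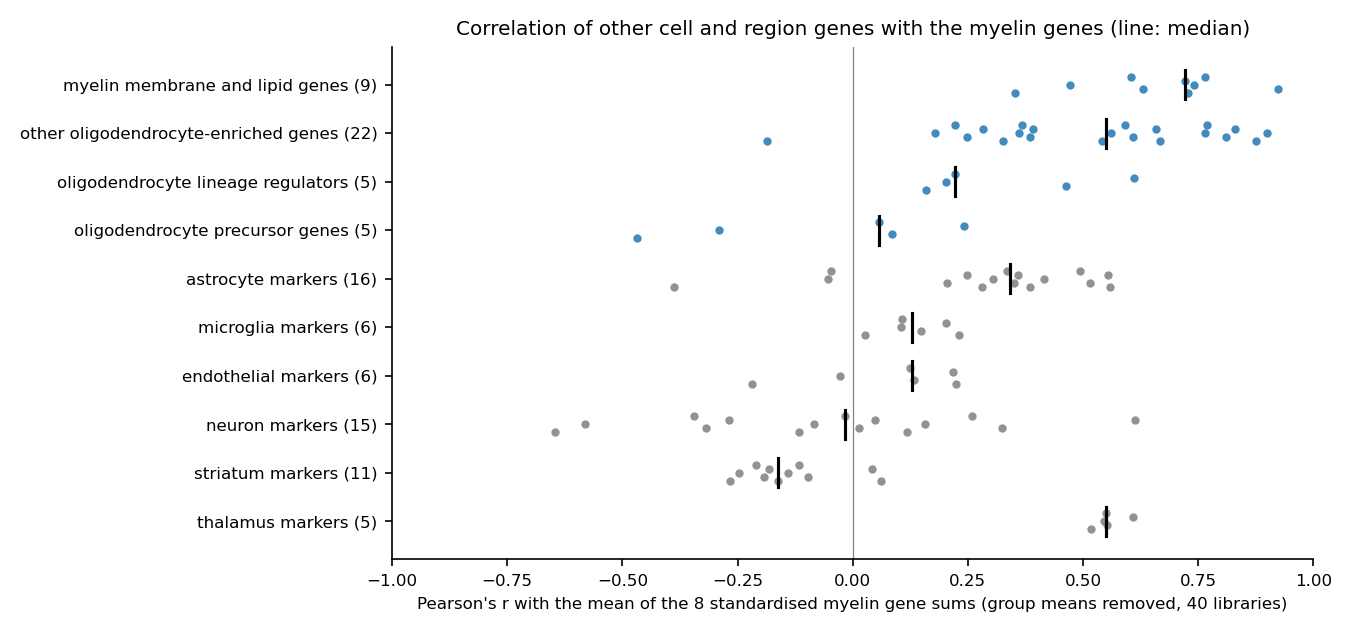
Pearson's r (horizontal axis) of each gene of 10 lists with the mean of the 8 standardised myelin gene sums over 40 libraries, group means removed; blue points are oligodendrocyte lineage lists, grey points other cells and regions, and lines are medians. Septin4 lies at 0.90, and the 5 thalamus markers lie between 0.52 and 0.61.

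The other genes of the lineage were set against the same groups. Among 9 myelin membrane and lipid genes, 1 rose and 0 fell after HF-HI under saline, beside 10.7% of all gene sums called, and 1 rose and 0 fell in memantine sham against saline sham, beside 7.9%. Both counts are near the background. The gene was Tspan2, a tetraspanin of early myelination, at 2057 ± 481 in saline sham, 2347 ± 256 in memantine sham, 2392 ± 320.2 in saline HF-HI and 2408 ± 213 in memantine HF-HI. Its log2 difference was 0.25 ± 0.10 (SE, P = 0.0195, adjusted P = 0.363, limma) for HF-HI under saline and 0.22 ± 0.10 (P = 0.0336, adjusted P = 0.581) for memantine in sham animals, both against the same saline sham libraries. The former call was lost without saline sham replicate 2 or 7 (P up to 0.068) and the latter without any 1 of 6 libraries (saline sham replicates 2, 4 and 7 and memantine sham replicates 1, 2 and 6, P up to 0.116).

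Among 22 other oligodendrocyte-enriched genes, 1 rose after HF-HI under saline (10.7% of all gene sums called) and 1 with memantine in sham animals (7.9%), both below the background. That gene was Septin4, a cytoskeletal septin, with log2 differences of 0.11 ± 0.05 (P = 0.027, adjusted P = 0.399) and 0.10 ± 0.05 (P = 0.0488, adjusted P = 0.627). Its former call was lost without saline sham replicate 2 or saline HF-HI replicate 10 (P up to 0.0855), and its latter call on leaving out any 1 of 25 libraries, from all 4 groups (P up to 0.125). Enpp4 fell with memantine after HF-HI, by 0.12 on the log2 scale (P = 0.0174, adjusted P = 0.997), as 1 of 22 beside 3.62% of all gene sums, and the call was lost without memantine HF-HI replicate 5 (P = 0.0593). Among 5 lineage regulators none passed in any comparison. Olig1 had a log2 difference of −0.08 (−0.22 to 0.07) and Myrf of −0.01 (−0.21 to 0.19) for HF-HI under saline.

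Of 5 precursor genes in the table, 2 fell and 0 rose in saline HF-HI against saline sham, beside 10.7% of all gene sums called, with a median log2 difference of −0.12 over the 5. Gpr17, a receptor of precursors that are about to differentiate, lay between 695 and 1023 in saline sham (median 823) and between 624 and 885 in saline HF-HI (median 705). In memantine sham it lay between 724 and 933 (median 765) and in memantine HF-HI between 679 and 945 (median 822). Saline HF-HI was the low group, although its range overlapped the others. The log2 difference was −0.21 ± 0.06 for HF-HI under saline (P = 0.0028, adjusted P = 0.203), 0.17 ± 0.06 for memantine after HF-HI (P = 0.0104, adjusted P = 0.997) and 0.23 ± 0.09 for the interaction (P = 0.0141, adjusted P = 0.999). All 3 calls held with each library left out in turn, with P of at most 0.00914, 0.0276 and 0.0275. The striatum markers moved the same way, with median log2 differences of −0.18, 0.14 and 0.15 in these 3 comparisons. Their part in the values of the precursor genes was not tested. Ptprz1, a receptor phosphatase that astrocytes also express, averaged 5210 ± 415 in saline sham and 4800 ± 211 in saline HF-HI, a log2 difference of −0.12 ± 0.04 (P = 0.0062, adjusted P = 0.263), with P of at most 0.0179 when any 1 library was left out. Pdgfra, the growth factor receptor of precursors, had −0.15 (−0.45 to 0.16), an estimate that 1 library carried. Saline HF-HI replicate 10 stood at 354 and the other 9 of its group between 1022 and 1339, and without it the estimate was 0.02 (−0.17 to 0.22). Beside these values Gfap, the astrocyte filament, was higher in HF-HI by 0.29 (P = 0.0099) under saline and 0.45 (P = 0.0002) under memantine.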

How the data were processed

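Cortex RNA of 40 libraries was analysed from 1 table of the whole series. Per the authors, stranded libraries were made after depletion of ribosomal RNA and sequenced from both ends, and reads were aligned with STAR to build mm10 and counted per RefSeq transcript with eXpress, and counts were scaled and transformed with DESeq2. The submitters' processing notes name HISAT2 and StringTie instead, without versions. The deposited values are therefore variance-stabilised log2 values made by the authors, with a floor of 10.3577 at a count of 0. Neither the labels nor the study's methods state that each library came from a separate animal, and the design text of the series gives a smaller number of samples per group than the 10 that the labels give. Libraries were therefore taken as replicates as labelled, and P-values measure the spread between these libraries, which may in part be technical. No pair of libraries was alike within sampling noise, since the lowest chi-square over the reads of all rows was 40.2 per degree of freedom (780 pairs).

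The transformation was inverted to give normalised counts, and 100% of values under 5000 were whole reads within 0.1 after multiplication by the size factors (0.859 to 1.141). The lowest mean count in the table was 549.2, and the authors' threshold is not given in the sources used here. Symbols came from RefSeq, which matched 99.62% of the rows, transcript models from GENCODE (13 of the 15 member rows matched, 11 of them with a model of their own), and promoter sequences from RefSeq, GRCm38.p6. Because the values are not counts, limma 3.58.1 (R 4.3.3; lmFit, eBayes with trend) was fitted to all 6831 rows on the deposited scale and to all 5849 gene sums as log2(sum + 1), with 4 group means and 5 two-sided contrasts. A difference was called at an unadjusted P under 0.05, after the study, and P-values were adjusted by the Benjamini-Hochberg method over the whole table. Fold changes of gene sums are on the log2(sum + 1) scale. Permutation tests drew 100000 resamples. The fit was tested on simulated data.

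The members and gene lists were chosen with earlier results of these data known. Named genes were all members, up to 3 rising and 3 falling genes with the smallest P under 0.05 from each of 4 other oligodendrocyte lists, Sox10, Olig1, Olig2, Myrf and Pdgfra where present, and the 10 most and 5 least alike symbols, and 1 gene that this rule names is not reported here. Nefh, Map2, Stmn2, S100b, Aqp4, Gfap, Slc1a3, Bcan and Tnr were named after their values were seen. The replicate numbers were checked for pairing and did not pair the libraries. Alternatives were other normalisations, weights, filters, pseudocounts, a striatum covariate, a replicate block, and each library left out in turn, which for the other named genes and the sign split was chosen after the values were seen.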

Additional observations from a re-analysis of the deposited data

Results flagged for a closer look

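Of 72 groups of 10 values tested for a value far from the rest, 4 were flagged, and chance flags about 1 in 20. The Mobp gene sum of saline HF-HI replicate 1 was 636.2, with 2754.9 as the next value of its group. The Mal gene sum of saline sham replicate 7 was 5925.9, with 4987.4 next, in a library where all 8 genes were above their means. The Mbp row NM_001025245 stood at 1679.1 in saline sham replicate 2, with 1931.6 next, in a library where all 8 genes were below their means. The Cnp row NM_001146318 stood at 2707.6 in memantine sham replicate 1, with 2240.2 next.

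The effect of HF-HI on Gpr17 differed between saline and memantine animals by 0.2345 on the log2 scale in the interaction test (P = 0.0141, adjusted P = 0.999, limma), which does not pass adjustment over all gene sums.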

How the results depend on the processing

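The count of member gene sums called was 0 in all 5 comparisons under every alternative, leaving out any 1 library included (range 0 to 0). The 427 alternative values of the 40 log2 differences stayed on the same side of the threshold, and 5 of those with all 40 libraries changed sign, none of them called. For the member transcripts, the 1 call in saline HF-HI against saline sham became 0 with only the 2 groups of the comparison in the fit and 0 with the striatum markers as a covariate. Leaving out 1 library moved the count between 0 and 1 there, in memantine sham against saline sham, between the memantine and saline HF-HI groups and in the interaction. NM_001025255 was gained between the memantine and saline HF-HI groups without memantine HF-HI replicate 1, saline HF-HI replicate 1 or saline HF-HI replicate 5 (P from 0.0353 to 0.0393). NM_001025245 was gained in the interaction without saline HF-HI replicate 1 (P = 0.0436). Among the shares, the 2 tests with P under 0.05 became 1 when the log2 ratio of a row to the other rows was permuted (NM_001025255 in sham animals, P = 0.052). The cause of these changes was not tested. The median correlation of the 28 pairs was 0.62 with libraries centred on their medians, 0.68 without the 2 farthest libraries and 0.70 without saline HF-HI replicate 1.

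With the replicate block, 1 member transcript was called after HF-HI under saline and 1 with memantine in sham animals, as without it. Same-numbered libraries correlated from −0.23 to 0.28, 8 of 60 pairs were above 0.1, and 4 of 40 libraries correlated best with their own number. Counting error of the member transcripts was at most 4.25% of their mean, beside a spread within groups of 3.45% to 53.05%.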
